A study of Mus musculus with 31 samples.

Results

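The genes described here are the 10 core genes of microRNA processing and silencing in mouse kidney, namely the 4 Argonautes (Ago1, Ago2, Ago3 and Ago4), the 3 GW182 proteins (Tnrc6a, Tnrc6b and Tnrc6c), the ribonucleases Dicer1 and Drosha, and Dgcr8. They were picked by symbol from the 23509 gene rows of each count table, and all 10 were among the 15185 genes that passed the filter on low counts. Poly(A) RNA of whole kidneys was sequenced from 5 wild-type CD1 mice without treatment, 12 Pcy/CD1 mice given PBS and 14 Pcy/CD1 mice given 25 mg kg−1 of RGLS4326, with 1 library per mouse. Pcy/CD1 mice carry the pcy mutation on the outbred CD1 background and develop slowly progressing cystic kidneys, and RGLS4326 is a short oligonucleotide inhibitor complementary to the 5′ end of mature miR-17. Dosing was subcutaneous from 5 weeks of age, kidneys were taken at 30 weeks, and the wild-type mice were male and of the same age. RGLS4326 was given monthly, whereas the labels give PBS as weekly in one field and as monthly in another. The design asks how the machinery differs between cystic and wild-type kidney and between treated and PBS-treated cystic kidney.

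A microRNA is cut from its primary transcript in the nucleus by Drosha with its partner Dgcr8, exported, and trimmed by Dicer1 to a duplex from which 1 strand is loaded into an Argonaute. The Argonaute finds target mRNAs through the seed of the microRNA and binds a GW182 protein, which recruits deadenylases and translational repressors. Among the Argonautes, Ago2 is the one best known for cutting a fully paired target. The miR-17 family is encoded in clusters and promotes cell proliferation in several tissues, including cystic kidney epithelium.

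The seed of the inhibited family is shown first because it also defines the matches found in the machinery genes themselves. RefSeq (GRCm38.p6) held 7 mature mouse microRNAs with this seed, and 4 of them lie within the 2 host transcripts measured here, miR-17-5p and miR-20a-5p in Mir17hg on chromosome 14, and miR-93-5p and miR-106b-5p in Mcm7 on chromosome 5. Capitals mark bases 2 to 8, the seed, counted from the 5′ end.
miR-17-5p: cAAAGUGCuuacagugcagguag
miR-20a-5p: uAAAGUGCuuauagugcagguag
miR-93-5p: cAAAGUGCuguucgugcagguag
miR-106b-5p: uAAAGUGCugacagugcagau

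The complement of the seed, GCACTTT, was searched on the sense strand of the longest annotated 3′UTR of each gene (GENCODE vM21, GRCm38). It occurred 8 times in all in 6 of the 10 genes, once each in Ago1, Ago2, Tnrc6a, Tnrc6b and Tnrc6c and 3 times in Ago3, and was not in the 3′UTR of Ago4, Dicer1, Drosha or Dgcr8. Of all 20956 genes with a 3′UTR, 11.7% held it, but the 3′UTRs of the machinery genes are long, with a median of 3767 bases against 955.5. Among genes with at least 2000 bases of 3′UTR 27.7% held a match, against 6 of 8 machinery genes of that length, and among the 61 genes with at least 10000 bases 60.7% held one, as did all 3 machinery genes of that length, Ago2, Ago3 and Tnrc6b. The matches in Ago2 and in the GW182 genes are given within 30 bases of the sense strand because all 4 transcripts were lower with PBS than in wild type, with the match in capitals and its GRCm38 position after it. Ago1 also holds a match but was higher with PBS, and Ago3, with 3, was not called at the threshold used below. Dicer1 was lower with PBS without holding a match. A match of letters is a description and not evidence of binding.
Ago2: tcagagctgttGCACTTTctctgtaatcaa, last exon, chr15:73096835-73096841, minus strand
Tnrc6a: ggacgggccctGCACTTTgaacaggctttc, last exon, chr7:123193619-123193625, plus strand
Tnrc6b: acagaaactagGCACTTTggtggttcactt, last exon, chr15:80940547-80940553, plus strand
Tnrc6c: tatcatgaaggGCACTTTtcagattgtggg, last exon, chr11:117761141-117761147, plus strand

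Between 14892524 and 27459962 reads per mouse fell on genes. The 39 markers of tubule, podocyte, endothelium, leukocyte, fibroblast, proliferation or injury all passed the filter on low counts. None was at 0 throughout a group, which that filter makes likely and which is no test of tissue identity. Summed proximal tubule markers read 14930 to 16180 CPM (read counts scaled to library size) in wild type and 4932 to 9358 CPM with PBS, while summed fibroblast markers read 145.6 to 214.3 CPM and 530.8 to 1124 CPM and summed leukocyte markers 167.1 to 191 CPM and 318.7 to 535.4 CPM. The part of these cell types in the results below was not tested. RGLS4326-treated mouse 9 stood apart from its group, with 13.8 CPM of summed injury markers against 161.7 to 726.9 CPM in the 13 others and 5.96 to 25.8 CPM in wild type, so the main results with RGLS4326 are also given without it. Wild-type mice 3 and 4 were far more alike than other wild-type pairs, at 3.92 against 24.3 to 37.3 in chi-square per gene, but still differed beyond counting noise. The deposited library names carry index numbers in 3 series that each hold mice of all groups. Wild-type mice 3 and 4 are the only wild-type mice of the second series, so comparisons with wild type within it rest on this pair.

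Levels between genes were compared as CPM per kb of annotated exons, a scale that depends on how much of each 3′UTR the kidney uses. In wild type, Tnrc6a was highest at 15.4 ± 0.43 CPM per kb (SD, n = 5), followed by Drosha at 13.5 ± 0.773, Ago1 at 9.77 ± 0.561, Dicer1 at 8.04 ± 0.305, Dgcr8 at 6.25 ± 0.276, Tnrc6c at 4.90 ± 0.305, Tnrc6b at 4.22 ± 0.07, Ago2 at 3.55 ± 0.185, Ago4 at 1.15 ± 0.141 and Ago3 at 0.197 ± 0.0169. No pair of neighbours in this order overlapped in wild type. With PBS the ranges of Drosha and Tnrc6a, Tnrc6a and Ago1, Dgcr8 and Dicer1, Tnrc6c and Tnrc6b, Tnrc6b and Ago2, and Ago2 and Ago4 overlapped. The means of Drosha and Tnrc6a and of Dgcr8 and Dicer1 stood in the opposite order to wild type, with Drosha above Tnrc6a and Dgcr8 above Dicer1 in 9 of 12 PBS-treated mice each. In the wild-type order, Tnrc6c was above Tnrc6b and Tnrc6b above Ago2 in 12 of 12 PBS-treated mice, Tnrc6a above Ago1 in 11 and Ago2 above Ago4 in 8.

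Cystic kidneys of PBS-treated mice held less Ago2 and less of each GW182 transcript and Dicer1 than wild-type kidneys, and more Ago1, Ago4 and Dgcr8. Of the 10 genes, 3 were higher and 5 lower at an adjusted p under 0.05 (quasi-likelihood test of edgeR, Benjamini-Hochberg adjusted over all genes tested), on a background in which 74.3% of all genes passed, 37.7% higher and 36.6% lower. The median log2 fold change was −0.22 over the 10 genes and 0.01 over all genes tested. The 8 of 10 are thus close to the background share, as are the 8 with an unadjusted p under 0.05, where 76% of all genes passed. In RNA of whole kidneys, fewer cells of a type and less RNA per cell cannot be told apart.

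Ago2, on chromosome 15 of GRCm38 from 73095844 to 73184935 on the minus strand, differed most. It read 46.4, 49.7, 47.4, 53.0 and 48.6 CPM in wild-type mice 1 to 5 and 16.6 CPM at the lowest, 23.1 CPM at the median and 37.8 CPM at the highest with PBS. Every PBS-treated mouse lay below every wild-type mouse, and the log2 fold change was −0.99 (SE 0.18, adjusted p = 1.26e-05), the only one of the 10 beyond 0.5 in size, a size that 42.4% of all genes passed. Ago2 also fell within each index series that allowed the test, by 0.88 on the log2 scale in the first (adjusted p = 0.0282, same edgeR test) and by 1.11 in the second (adjusted p = 0.00579). The wild-type mice of the second series are the closely alike mice 3 and 4. The exons of Ago2 overlap Chrac1 on the opposite strand by 219 of 13800 bases. The strand setting of the counting is not given in the sources used here. Chrac1 had a log2 fold change of 0.00 (adjusted p = 0.935, edgeR).

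Of the other Argonautes, which bind microRNAs too and are neighbours on the minus strand of chromosome 4, Ago1 and Ago4 were higher. Ago1 read 69.1, 65.3, 76.5, 71.3 and 70.8 CPM in wild type and 70.4, 78.8 and 85.5 CPM at the lowest, median and highest with PBS, with 7 of 12 PBS-treated mice above the wild-type range. Its log2 fold change was 0.16 (SE 0.05, adjusted p = 0.00702, edgeR). Ago4 read 7.25, 6.24, 7.45, 7.75 and 8.79 CPM in wild type and 7.46, 9.84 and 11.7 CPM at the lowest, median and highest with PBS, with 8 of 12 above the wild-type range and a log2 fold change of 0.35 (SE 0.12, adjusted p = 0.0101, edgeR). Within the first and second index series the log2 fold change of Ago1 was 0.19 and 0.12 (adjusted p = 0.08 and 0.33) and that of Ago4 0.54 and 0.39 (adjusted p = 0.0283 and 0.105). Ago3 was the scarcest of the 10. It read 3.42, 3.27, 3.02, 2.79 and 2.89 CPM in wild type and 1.31, 2.46 and 4.24 CPM at the lowest, median and highest with PBS, with 31 to 96 counts per PBS-treated mouse (log2 fold change −0.20, SE 0.16, 95% interval −0.53 to 0.12, adjusted p = 0.246, edgeR). The PBS-treated mice lay on both sides of the wild-type range, 7 below, 3 inside and 2 above.

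All 3 GW182 genes, whose proteins link Argonautes to the deadenylases, were lower with PBS. Tnrc6b read 73.2, 74.6, 71.3, 72.8 and 73.8 CPM in wild type and 41.5, 55.3 and 65.8 CPM at the lowest, median and highest with PBS, so the groups did not overlap (log2 fold change −0.44, SE 0.09, adjusted p = 6.91e-05, edgeR). Tnrc6a, the most abundant, read 124.7, 123.3, 124.7, 127.4 and 132.2 CPM in wild type and 84.9, 109 and 129.9 CPM at the lowest, median and highest with PBS. Its log2 fold change was −0.24 (SE 0.07, adjusted p = 0.00335, edgeR), with 11 of 12 PBS-treated mice below wild type. Tnrc6c read 44.5, 47.3, 45.0, 48.6 and 41.2 CPM in wild type and 31.8, 39.2 and 44.6 CPM with PBS, with 9 of 12 mice below wild type and a log2 fold change of −0.23 (SE 0.07, adjusted p = 0.00335, edgeR). Within the first and second index series the log2 fold changes were −0.43 and −0.42 for Tnrc6b (adjusted p = 0.0337 and 0.0523), −0.18 and −0.25 for Tnrc6a (adjusted p = 0.276 and 0.113) and −0.26 and −0.22 for Tnrc6c (adjusted p = 0.0491 and 0.128), so only Tnrc6b and Tnrc6c passed there, in the first series. Scaling by the upper quartile, which put the median log2 fold change of all genes at 0.13 in place of 0.01, left Tnrc6a and Tnrc6c short of the threshold (adjusted p = 0.104 and 0.121) and brought Drosha past it, for 4 higher and 3 lower among the 10.

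Of the processing enzymes, only Dicer1 was lower. Dicer1, which cuts precursor hairpins in the cytoplasm, read 80.2, 74.2, 80.8, 79.1 and 82.0 CPM in wild type and 58.7, 65.1 and 72.7 CPM at the lowest, median and highest with PBS. The groups did not overlap, and the log2 fold change was −0.28 (SE 0.05, adjusted p = 3.45e-06, edgeR), and −0.26 and −0.27 within the first and second index series (adjusted p = 0.0301 and 0.0296). Dgcr8, which binds primary transcripts and positions Drosha on them, read 25.8, 27.0, 27.0, 28.9 and 26.4 CPM in wild type and 27.7, 29.1 and 31.3 CPM at the lowest, median and highest with PBS (log2 fold change 0.12, SE 0.04, adjusted p = 0.00522, edgeR), and 8 of 12 PBS-treated mice lay above the wild-type range. Within the first and second index series its log2 fold change was 0.14 and 0.07 (adjusted p = 0.152 and 0.448). Dgcr8 overlaps Trmt2a on the opposite strand by 825 of 4320 exonic bases, and Trmt2a rose by 0.34 on the log2 scale (adjusted p = 2.05e-05, edgeR). The nuclear ribonuclease Drosha read 64.9, 57.3, 61.4, 65.6 and 59.5 CPM in wild type and 61.0, 63.7 and 70.5 CPM with PBS, with 10 of 12 PBS-treated mice inside the wild-type range (log2 fold change 0.06, SE 0.04, 95% interval −0.02 to 0.15, adjusted p = 0.155, edgeR). In all, 3 of 10 genes had ranges that did not overlap between PBS and wild type, Ago2, Tnrc6b and Dicer1, where 42.2% of all genes tested did so.

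**Figure D1:**
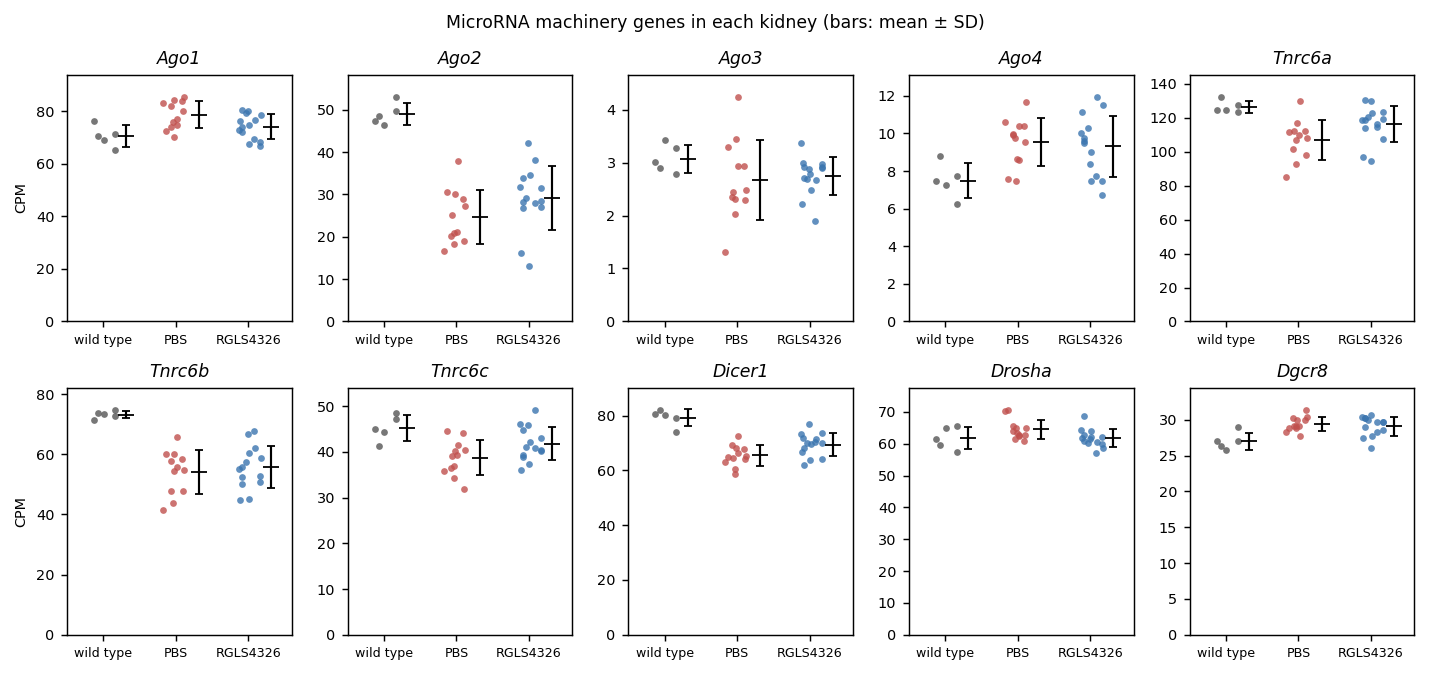
CPM (vertical axes, from 0) of each of the 10 machinery genes in every kidney of the wild-type (n = 5), PBS (n = 12) and RGLS4326 (n = 14) groups, 1 point per mouse, with black bars for the mean ± SD. Ago2, Tnrc6b and Dicer1 separate wild type from PBS without overlap, while PBS and RGLS4326 overlap for every gene.

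The lower level of Ago2 and Tnrc6b was set beside their 3′UTR length, a property not used to choose the genes. Their 3′UTRs have 11064 and 11609 bases, and that of Ago3, which did not pass, has 12742. Over the 13821 tested genes with an annotated 3′UTR, the median log2 fold change between PBS and wild type was 0.08 for 3′UTRs under 2000 bases (9799 genes), −0.15 for those of 2000 to under 10000 bases (3984 genes) and −0.31 for those of 10000 bases or more (38 genes), of which 25 were lower and 1 higher. The 3 machinery genes of the longest class had a median of −0.44 and the 5 of the middle class one of −0.23. Genes with a seed match in the middle class had a median of −0.20 and those without one of −0.13, and in the longest class the medians were −0.37 for 28 genes with a match and −0.18 for 10 without. These medians are descriptions, and no difference between classes was tested.

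The make-up of each family was compared as the share of each paralog in the family's reads per kb, which needs no scaling between libraries. Ago1 held most of the Argonaute reads per kb, at 66.6% ± 1.47 (SD, n = 5) in wild type and 76.2% ± 2.92 (SD, n = 12) with PBS. The share of Ago2 was 24.2% ± 1.51 (SD, n = 5) in wild type, from 22.4% to 26.1%, and 12.4% ± 2.89 (SD, n = 12) with PBS, from 8.36% to 18.3%. Both shares differed without overlap, with an adjusted p of 0.000862 over 16 share and ratio tests (two-sided exact permutation test). The share of Ago4 was higher, at 10.2% ± 1.01 against 7.81% ± 0.793 (adjusted p = 0.00194, exact permutation test), and that of Ago3 was 1.19% ± 0.318 against 1.35% ± 0.166 (adjusted p = 0.461, exact permutation test).

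Within the GW182 family the share of Tnrc6b was 17.2% ± 0.318 (SD, n = 5) in wild type and 15.2% ± 0.529 (SD, n = 12) with PBS, again without overlap (adjusted p = 0.000862, exact permutation test). Tnrc6a held 62.9% ± 1.28 in wild type and 64.2% ± 1.23 with PBS (adjusted p = 0.143, exact permutation test), and Tnrc6c 19.9% ± 1.23 and 20.6% ± 1.37 (adjusted p = 0.462, exact permutation test). The log2 ratio of Drosha to Dgcr8, the pair that cuts primary transcripts, was 1.11 ± 0.0889 in wild type and 1.05 ± 0.0929 with PBS (adjusted p = 0.383, exact permutation test). In all, 4 of 8 shares and ratios differed between PBS and wild type, but shares of a family sum to 100%, so those of Ago1, Ago2 and Ago4 are not separate differences. Between RGLS4326 and PBS, 0 of 8 passed, the nearest being the share of Ago1 at 73.5% ± 2.54 (SD, n = 14) against 76.2% ± 2.92 (p = 0.0207 and adjusted p = 0.0663, permutation test) and that of Ago2 at 15.04% ± 3.51 against 12.4% ± 2.89 (p = 0.0534 and adjusted p = 0.142, permutation test). These 2 calls turned on single mice, as the share of Ago1 passed without PBS-treated mouse 4 (adjusted p = 0.00765, permutation test) and both passed without RGLS4326-treated mouse 2 (adjusted p = 0.031 and 0.0473) or mouse 14 (adjusted p = 0.0196 and 0.0375). Without RGLS4326-treated mouse 9 it was instead the share of Tnrc6b that passed, with a difference of −0.787 percentage points (adjusted p = 0.0314, permutation test).

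**Figure D2:**
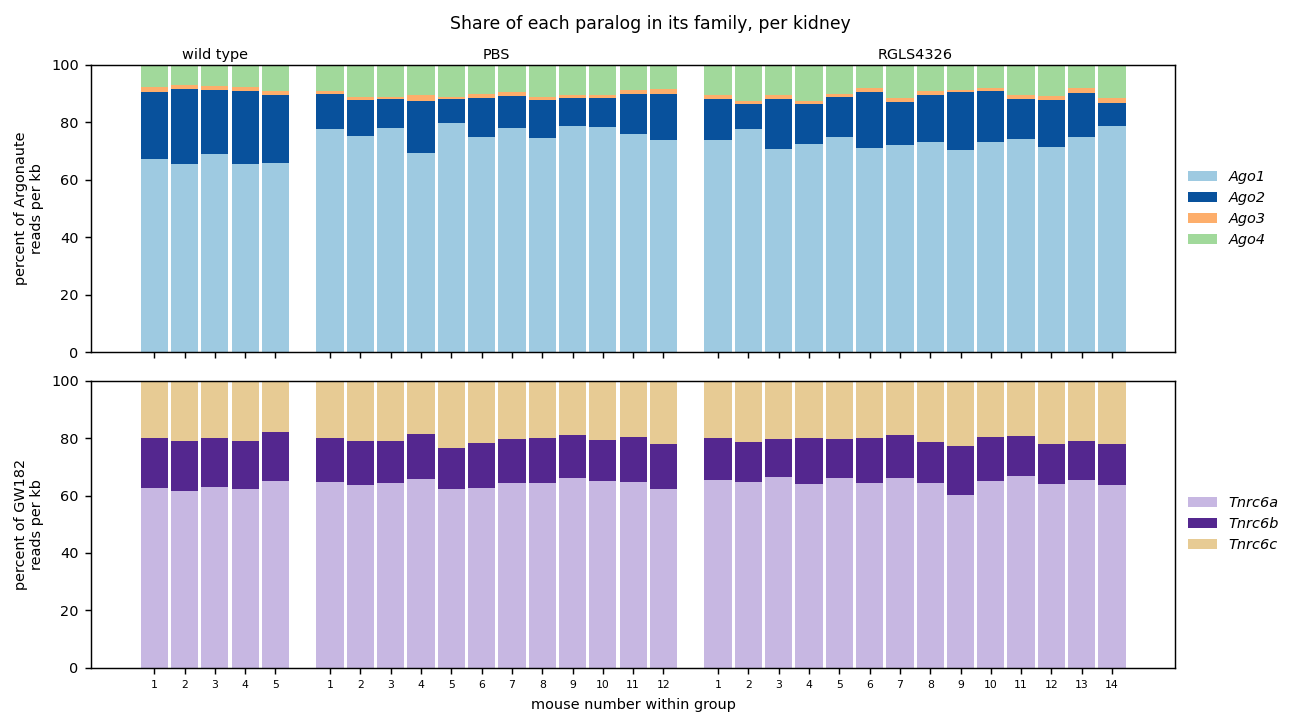
Percent of the summed reads per kb of the Argonaute family (upper panel) and the GW182 family (lower panel) held by each paralog, 1 stacked bar per mouse in the 3 groups. The Ago2 segment is 22.4% to 26.1% in wild type and 8.36% to 18.3% with PBS, and the Tnrc6b segment is narrower in every PBS-treated mouse than in any wild-type mouse.

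No machinery gene differed past the threshold between RGLS4326 and PBS. At an adjusted p under 0.05, 0 were called (edgeR's quasi-likelihood test), where 15.8% of all genes tested were, and DESeq2 also called 0. None was called with a log2 fold change beyond 0.5 in size, where 2.15% of all genes were. At an unadjusted p under 0.05 there were 5, Ago1 and Drosha lower and Tnrc6a, Tnrc6c and Dicer1 higher, where 36.8% of all genes passed. The median log2 fold change was 0.04 over the 10 genes and 0.00 over all genes tested. No gene of the 10 had ranges that did not overlap, and the share over all genes tested was 0%.

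The widest interval belonged to Ago2, which read 13.1 CPM at the lowest, 28.9 CPM at the median and 42.1 CPM at the highest with RGLS4326, against 16.6, 23.1 and 37.8 CPM with PBS. The log2 fold change was 0.24 (SE 0.14, 95% interval −0.04 to 0.52, adjusted p = 0.196, edgeR), and 0.04, 0.55 and 0.09 within the 3 index series. RGLS4326-treated mice 14 and 2 were the lowest at 13.1 and 16.2 CPM, below all PBS-treated mice, while mice 6 and 9 were the highest at 42.1 and 38.2 CPM. Without mouse 9 the log2 fold change was 0.21 (adjusted p = 0.293, edgeR).

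The GW182 genes had positive log2 fold changes of which none passed. Tnrc6a read 94.6, 118.7 and 130.3 CPM at the lowest, median and highest with RGLS4326 (log2 fold change 0.12, SE 0.05, 95% interval 0.01 to 0.23, adjusted p = 0.107, edgeR). Tnrc6c read 36.1, 41.1 and 49.1 CPM (log2 fold change 0.11, SE 0.05, adjusted p = 0.107, edgeR), and Tnrc6b 44.7, 55.4 and 67.8 CPM (log2 fold change 0.04, SE 0.07, adjusted p = 0.647, edgeR). In all 3, most RGLS4326-treated mice lay inside the PBS range, 12 of 14 for Tnrc6a and Tnrc6b and 10 of 14 for Tnrc6c.

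Dicer1, with the smallest unadjusted p of the 10, read 62.0, 70.0 and 76.8 CPM at the lowest, median and highest (log2 fold change 0.08, SE 0.03, 95% interval 0.02 to 0.15, adjusted p = 0.0745, edgeR). It passed without PBS-treated mouse 4 (adjusted p = 0.0306, edgeR) or RGLS4326-treated mouse 5 or 14 (adjusted p = 0.0414 and 0.0491), and Tnrc6a passed without PBS-treated mouse 4 or RGLS4326-treated mouse 2 (adjusted p = 0.0359 and 0.0489). Ago1 read 66.7, 74.5 and 80.7 CPM with RGLS4326 (log2 fold change −0.09, SE 0.04, adjusted p = 0.0942, edgeR), with 4 mice below the PBS range and none above it. Drosha read 57.0, 61.7 and 68.7 CPM (log2 fold change −0.06, SE 0.03, adjusted p = 0.121, edgeR), with 6 mice below the PBS range, and it was called under upper-quartile scaling at −0.09 (adjusted p = 0.043). For Ago3, Ago4 and Dgcr8 the log2 fold changes were 0.04, −0.03 and −0.02, with 95% intervals of −0.20 to 0.28, −0.21 to 0.14 and −0.07 to 0.04. The bound farthest from 0 among the 10 intervals was the 0.52 of Ago2. Without mouse 9, 0 of the 10 genes passed, and the log2 fold changes were −0.08 for Ago1, 0.07 for Ago3, −0.01 for Ago4, 0.12 for Tnrc6a, 0.02 for Tnrc6b, 0.09 for Tnrc6c, 0.08 for Dicer1, −0.05 for Drosha and −0.01 for Dgcr8.

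The 6 genes with a seed match had a median log2 fold change of 0.08 between RGLS4326 and PBS and the 4 without had −0.02. Over the 13821 tested genes with an annotated 3′UTR the corresponding medians were 0.04 for 1925 genes with a match and −0.01 for 11896 without. With and without a match, the medians over these genes were 0.02 and −0.02 for 3′UTRs under 2000 bases. They were 0.05 and 0.03 for those of 2000 to under 10000 bases. For 10000 bases or more they were 0.121 over 28 genes and 0.0952 over 10 genes. The medians of the machinery genes rest on 6 and 4 genes, and no difference between these medians was tested.

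**Figure D3:**
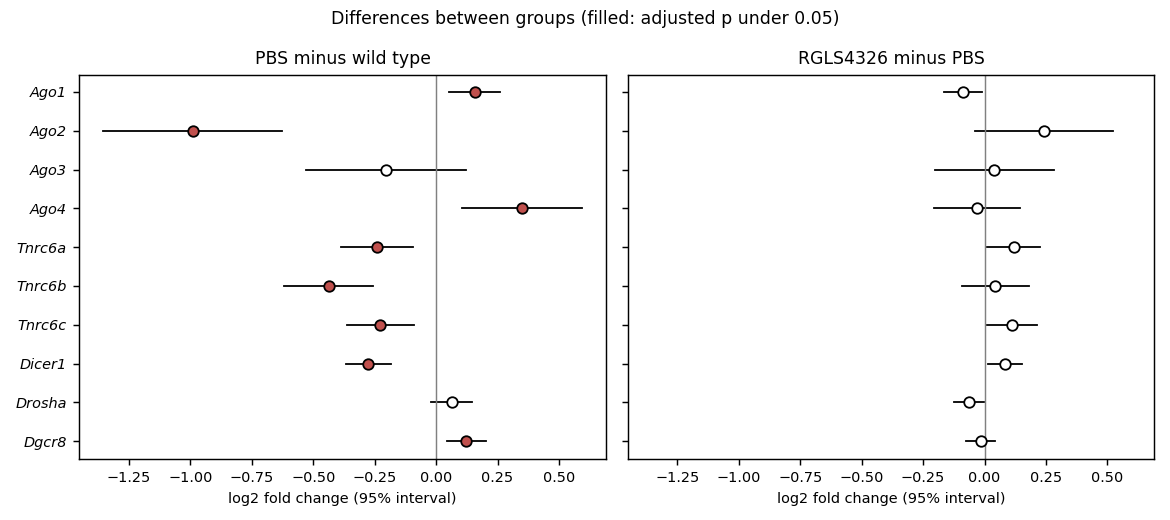
Log2 fold changes (points) with 95% intervals (lines) of the 10 machinery genes for PBS minus wild type (left) and RGLS4326 minus PBS (right) on the same axis, filled where the adjusted p was under 0.05. On the left 8 points are filled, led by Ago2 at −0.99, and on the right none is.

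Both comparisons above share the PBS-treated mice, so the treated mice were also set directly against wild type. There 2 genes were higher, Ago4 (log2 fold change 0.32) and Dgcr8 (0.11), and 3 were lower, Ago2 (−0.75), Tnrc6b (−0.39) and Dicer1 (−0.19), where 64.9% of all genes tested passed, 32.5% higher and 32.4% lower. The same 5 had an unadjusted p under 0.05, where 68.1% of all genes did, and Ago2 alone was also beyond 0.5 in size, where 31.5% were. Upper-quartile scaling called 7, with Ago1 (0.16, adjusted p = 0.0114, edgeR) and Drosha (0.09, adjusted p = 0.0463) also higher, for 4 higher and 3 lower. Every RGLS4326-treated mouse lay below the wild-type range for Ago2 and Tnrc6b, as 14.8% of all genes did in 1 direction or the other. For Ago2 this includes mouse 9, whose summed injury markers were within the wild-type range, while its proximal tubule markers (14060 CPM) lay below that range and its fibroblast markers (235.8 CPM) above it. Its 38.2 CPM lay under the wild-type minimum of 46.4 CPM, and without it the log2 fold change was −0.78 (adjusted p = 0.000255, edgeR). The same 5 genes passed without mouse 9, the others at 0.34 for Ago4, −0.41 for Tnrc6b, −0.19 for Dicer1 and 0.11 for Dgcr8. Ago4 lost its call without wild-type mouse 2 (log2 fold change 0.26, adjusted p = 0.0717, edgeR).

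Partners of the machinery were followed in 7 lists of 53 genes, of which 51 were tested. One of the lists holds the host transcripts Mir17hg and Mcm7, which are counted among the partner genes here and below. Lin28a and Lin28b, which block precursor processing, had at most 1 count in any mouse. Between PBS and wild type, where 37.7% and 36.6% of all genes were higher and lower, 13 were higher and 23 lower, with 15 short of the threshold, and a median log2 fold change of 0.01. Upper-quartile scaling turned this split to 24 higher and 16 lower, so the balance of directions rests on the scaling. The largest list, the CCR4-NOT and PAN2-PAN3 deadenylases that GW182 proteins recruit, had 7 of 12 lower and 3 higher. The smallest p belonged to Cnot9, at a mean of 53.5 CPM (SD 3.26) over the wild-type mice and of 37.3 CPM (SD 2.23) over the PBS-treated ones (log2 fold change −0.52, adjusted p = 1.49e-08, edgeR), followed by Cnot11 (−0.39, adjusted p = 2.99e-07) and the scaffold Cnot1 (−0.48, adjusted p = 1.23e-06). Cnot9 is the subunit of the complex that contacts GW182 proteins.

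The counts of the lists below stand beside 36.6% lower and 37.7% higher among all genes tested, and no list was tested as a set. Chaperones and Dicer partners had 4 of 6 lower and 1 higher. Ptges3, the p23 co-chaperone of Hsp90, read 71.5 ± 5.17 CPM in wild type and 54.6 ± 4.56 CPM with PBS (log2 fold change −0.39, adjusted p = 8.73e-07, edgeR), and the Hsp90 genes Hsp90aa1 (−0.44) and Hsp90ab1 (−0.20) were also lower. In the decapping and decay list 4 of 11 were lower and 1 higher, with the decapping enzyme Dcp2 (−0.37, adjusted p = 5.76e-06, edgeR) and the helicase Ddx6 (−0.34) lower and the decapping scaffold Edc4 (0.16) higher. Among silencing cofactors 5 of 11 were lower and 4 higher. The LIM proteins Ajuba (38.1 ± 2.80 CPM against 83.6 ± 11.2 CPM, log2 fold change 1.13, adjusted p = 1.57e-08, edgeR) and Wtip (0.94, adjusted p = 2.92e-08) rose most, and the RNA-binding protein Fmr1 fell most (41.7 ± 4.65 CPM against 24.6 ± 5.04 CPM, log2 fold change −0.76, adjusted p = 5.58e-06, edgeR). Of the nuclear partners, Srrt, which binds capped primary transcripts, was higher (0.31) and the helicase Ddx5 lower (−0.31), with 3 of 5 short of the threshold. In the tailing and turnover list, the exonuclease Dis3l2 (−0.23) was lower, Zswim8, part of the ubiquitin ligase for target-directed microRNA decay, higher (0.21), and the uridylyltransferase Tut4 higher (0.27).

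With RGLS4326, 7 of the 51 partner genes were higher and 4 lower than with PBS, against 9.15% and 6.66% of all genes tested. Cell type markers were called in the same comparison, with the proximal tubule transporter Slc22a6 higher (0.35, adjusted p = 0.0272, edgeR) as 1 of 6 proximal tubule markers, all 6 of which had positive values, and the collecting duct genes Aqp2 (−0.56, adjusted p = 0.0265) and Scnn1g (−0.33, adjusted p = 0.0191) lower as 2 of 5 markers of the loop, distal tubule and collecting duct, of which the other 3, Umod (0.08), Slc12a1 (0.20) and Slc12a3 (0.24), had positive values and did not pass. Their part in the partner genes' values was not tested. The smallest p belonged to Ptges3, which read 60.4 CPM at the lowest, 65.4 CPM at the median and 72.6 CPM at the highest, against 47.1, 53.9 and 61.2 CPM with PBS (log2 fold change 0.27, SE 0.04, adjusted p = 0.00115, edgeR). The deadenylase subunits Cnot7 (0.19, adjusted p = 0.00936) and Cnot6l (0.18, adjusted p = 0.0157), which remove the poly(A) tail, rose and Cnot10 fell (−0.12, adjusted p = 0.0147), all by edgeR. Other calls were the chaperone Hspa8 (0.31), Ddx5 (0.16) and the Fmr1 relative Fxr1 (0.11) and Cnot11 (0.12), all higher, and Tut4 (−0.21) and Ajuba (−0.27), both lower. None of the 11 decapping genes passed by edgeR, where 4 had an unadjusted p under 0.05, as 36.8% of all genes did. Without mouse 9, 4 partner genes were higher and 2 lower; Ptges3, Cnot7, Cnot6l, Cnot10, Fxr1 and Mcm7 passed, and Hspa8, Ddx5, Cnot11, Tut4 and Ajuba did not (adjusted p of 0.0513 to 0.0713). Leaving out single mice gave 3 to 11 higher and 1 to 6 lower, with 11 higher without PBS-treated mouse 4 and 3 or 4 higher and 1 or 2 lower without PBS-treated mouse 2, 3, 5, 9 or 10 or RGLS4326-treated mouse 3, 8, 9, 10 or 13. Within each index series alone 0 passed, as did 0 of all genes tested there, so this says nothing particular of the partner genes.

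Of the host transcripts of the inhibited family, Mcm7 was higher with PBS than in wild type and lower with RGLS4326 than with PBS. Mcm7, a helicase subunit of DNA replication whose introns hold miR-93 and miR-106b, had a mean of 24.5 CPM (SD 1.08) over the wild-type mice, 38.5 CPM (SD 5.6) over the PBS-treated and 32.2 CPM (SD 4.78) over the RGLS4326-treated mice. The log2 fold change was 0.65 with PBS against wild type (adjusted p = 2.99e-06, edgeR) and −0.25 with RGLS4326 against PBS (adjusted p = 0.0283). Its exons overlap those of Ap4m1 and Cops6 on the opposite strand by 247 and 111 bases. The call against PBS was lost without PBS-treated mouse 3, 5, 9 or 10 or RGLS4326-treated mouse 8 (adjusted p of 0.0507 to 0.0631, edgeR). Summed proliferation markers read 5.37 to 15.5 CPM in wild type, 26.4 to 66.0 CPM with PBS and 10.6 to 43.9 CPM with RGLS4326, with 4 of 4 markers higher with PBS than in wild type and 1 of 4 lower with RGLS4326 than with PBS, and their part in the Mcm7 values was not tested. Mir17hg, the primary transcript of the miR-17 cluster, read 4.04 ± 0.657, 4.34 ± 0.715 and 5.08 ± 0.745 CPM in the same order (log2 fold changes 0.11 with adjusted p = 0.445 and 0.23 with adjusted p = 0.0718, edgeR). Against wild type, the RGLS4326-treated mice had more of both, by 0.40 for Mcm7 and 0.33 for Mir17hg on the log2 scale (adjusted p = 0.00136 and 0.0188, edgeR), and the call of Mir17hg was lost without wild-type mouse 1 (0.24, adjusted p = 0.0957). Host mRNA levels do not measure the mature microRNAs.

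**Figure D4:**
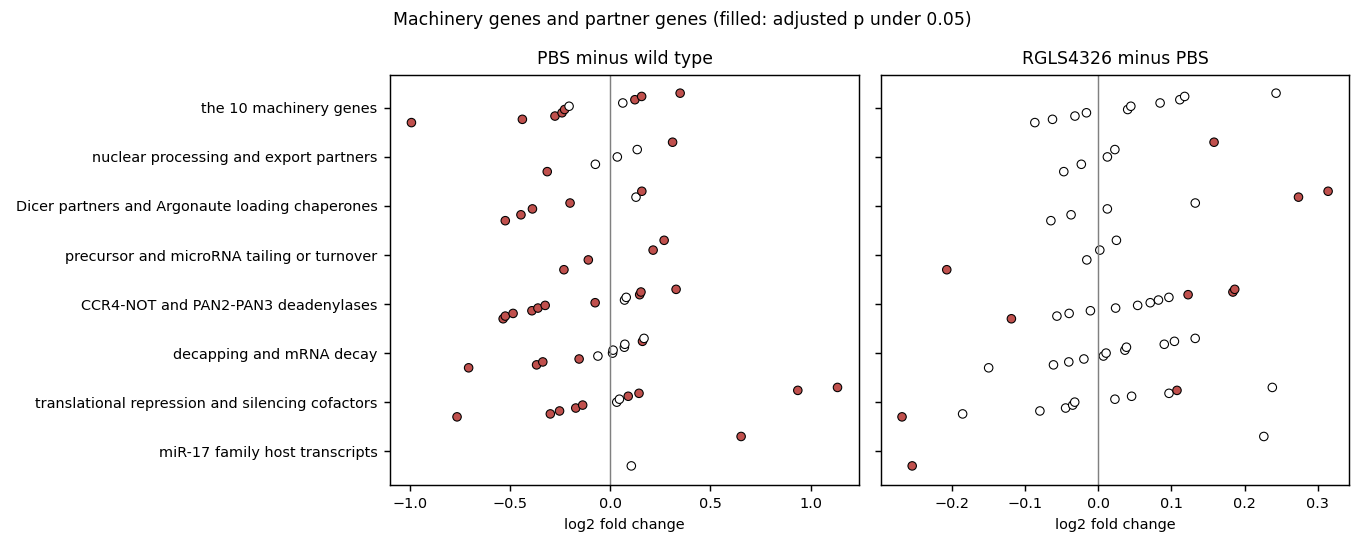
Log2 fold change of each tested gene (points, spread vertically within a list) for PBS minus wild type (left) and RGLS4326 minus PBS (right, narrower axis). The top row holds the 10 machinery genes and the 7 rows below hold the partner lists, the last of them the host transcripts. Points are filled where the adjusted p was under 0.05. The left panel runs from Fmr1 at −0.76 among the partners to Ajuba at 1.13, and every point of the right panel lies between −0.27 and 0.31.

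Kidneys of 1 group differ widely in injury, so each machinery gene was set against Lcn2, an injury marker of the tubule, within the PBS and within the RGLS4326 group on log2(CPM + 1). Of 20 relations, 3 passed by Pearson's r after adjustment and 0 by Spearman's rho (permutation test). The share over all genes was not computed, so these counts cannot be read as particular to the machinery genes. Among PBS-treated mice, Tnrc6b was lower where Lcn2 was higher, with r = −0.84 (adjusted p = 0.0112, permutation test, n = 12) and rho = −0.67 (adjusted p = 0.0986). Tnrc6a gave r = −0.80 (adjusted p = 0.0112, permutation test) and rho = −0.69 (adjusted p = 0.0986). Among RGLS4326-treated mice Tnrc6c gave r = −0.70 (adjusted p = 0.0112, permutation test, n = 14) and rho = −0.69 (adjusted p = 0.0785), but without mouse 9 it no longer passed, with r = −0.57 (adjusted p = 0.128, permutation test).

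Without the 2 mice farthest from the median of Lcn2, 0 of 20 passed the adjustment, although the values remained at −0.78 for Tnrc6b and −0.78 for Tnrc6a among PBS-treated mice and moved to −0.56 for Tnrc6c among RGLS4326-treated mice (unadjusted p = 0.00898, 0.00867 and 0.0607, permutation test). Within index series the 3 values of r were −0.91, −0.87 and −0.67. Ago2 gave r = −0.66 among PBS-treated mice (adjusted p = 0.0709, permutation test) and r = −0.41 among RGLS4326-treated mice (adjusted p = 0.212). For Ago3 the sign of r differed between the groups, −0.69 with PBS and 0.61 with RGLS4326, and the second rested on mouse 9, without which it was −0.16. Ago4 among RGLS4326-treated mice gave r = 0.58 with mouse 9 (adjusted p = 0.0552, permutation test) and 0.81 without it (adjusted p = 0.0095), where it passed. Whether any relation differed between the groups was not tested.

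**Figure D5:**
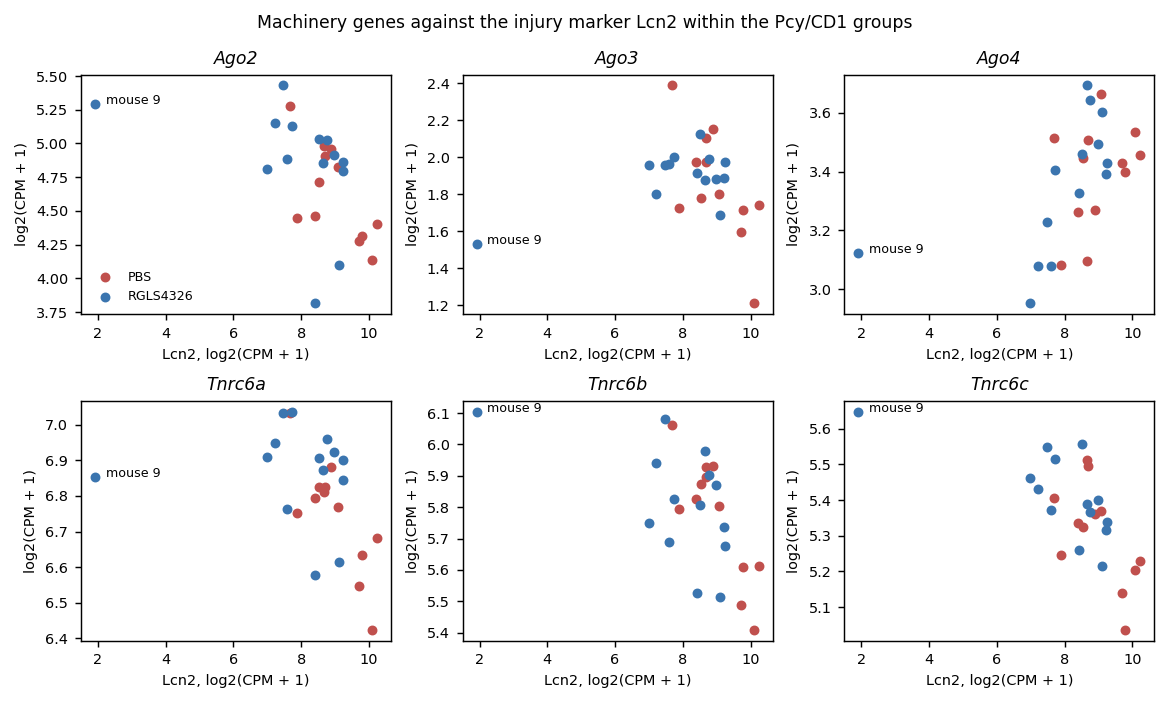
Log2(CPM + 1) of 6 machinery genes (vertical axes, not from 0) against log2(CPM + 1) of Lcn2 (horizontal axes), 1 point per PBS-treated (red, n = 12) or RGLS4326-treated (blue, n = 14) mouse. Tnrc6a and Tnrc6b decline with Lcn2 among the red points, at r = −0.80 and −0.84, and RGLS4326-treated mouse 9 lies far to the left of all others.

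The likeness of the genes from mouse to mouse was described around their group means. Of the 45 pairs of the 10 genes, 12 had a Pearson's r over 0.5 of log2(CPM + 1) deviations over the 31 mice, and 0 were under −0.5, with a median of 0.15. That is 26.7% over 0.5, where 12.8% of all pairs of the 11523 genes averaging 5 CPM or more were, and 0%, where 11.9% were. The closest were Ago2 with Tnrc6a (0.87), Ago2 with Tnrc6b (0.87) and Tnrc6a with Tnrc6b (0.85), while Drosha with Tnrc6b was the most opposed at −0.34. Among those 11523 genes, the closest to Ago2 was Hipk2 (r = 0.96), a nuclear kinase. The most like Tnrc6b was Pdpk1 (0.93), the most like Tnrc6a Tmtc3 (0.92), the most like Tnrc6c Vprbp (0.86) and the most like Ago1 Fat1 (0.81). For Ago4, Dicer1, Ago3, Drosha and Dgcr8 they were Srgap2 (0.80), Chd2 (0.76), Zfp932 (0.76), Psmf1 (0.71) and Mecom (0.70). The values share the same libraries and are given as descriptions.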

How the data were processed

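Libraries were made from kidney poly(A) RNA with a stranded mRNA kit. The authors trimmed paired reads with Trim Galore, aligned them to GRCm38 by STAR and obtained gene counts by HTSeq 0.6.1, per the labels and methods. The deposited values are raw counts per gene and mouse with no normalization. The strand setting and annotation of the counting are not given in the sources used here. Rows naming no gene (8.394% to 10.09% without a feature, 0.3049% to 0.4111% ambiguous and 17.83% to 21.22% not unique, relative to all rows) were left out.

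Genes passing filterByExpr were scaled by TMM and fitted with edgeR 4.0.16 (glmQLFit and glmQLFTest, R 4.3.3) with 1 coefficient per group over all 31 mice. The SE of a log2 fold change is its size divided by the root of F and gives the 95% interval. CPM values use TMM-scaled library sizes. With 14892524 or more counts per mouse, counting error was larger for scarce genes such as Ago3 and Mir17hg. Shares and relations were tested by permuting mice, exactly where a group had under 10 mice and otherwise with 100000 resamples, and adjusted over 16 and 20 tests. DESeq2 1.42.0 served as an alternative, and other alternatives covered the filter, scaling, groups fitted, index series, replicate block, single mice, pseudocounts and length division. Scripts were tested on simulated data. Other steps used scipy 1.17.1, numpy 2.4.6, matplotlib 3.10.9 and pandas 2.3.3 under Python 3.11.15.

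The genes, lists and tests were chosen with earlier results of these data known. Named genes were the 10 machinery genes, up to 3 called partner genes with the smallest p per list and comparison, the gene most like each machinery gene, both host transcripts and Lcn2. Chrac1, Trmt2a, Ap4m1, Cops6, Slc22a6, Aqp2, Scnn1g, Umod, Slc12a1, Slc12a3, Lin28a, Lin28b and, with RGLS4326, Cnot11 were named after their values were seen. Rows Zcchc11 and Rqcd1 are given as Tut4 and Cnot9. Mice of a group were taken as separate animals, so the tests set differences against the spread between mice. The closeness of wild-type mice 3 and 4 bears on that assumption in comparisons with wild type.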

Additional observations from a re-analysis of the deposited data

How the results depend on the processing

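PBS against wild type gave 3 higher and 5 lower machinery genes. The counts were the same in 18 fits that each left out 1 PBS-treated or wild-type mouse or RGLS4326-treated mouse 9. The calls that also passed a log2 fold change of 0.5 were 0 higher and 1 lower, Ago2, with 1 called between RGLS4326 and wild type, and 3 higher and 5 lower partner genes between PBS and wild type and 0 and 0 between RGLS4326 and PBS. Upper-quartile scaling left 3 machinery genes lower against wild type, put 1 lower with RGLS4326, and gave 24 partner genes higher against wild type. In index series 1 alone, 1 machinery gene was higher than wild type with PBS, and Ago2, Tnrc6b, Tnrc6c and Dicer1 were lower. There 3 were called with RGLS4326 against wild type, and 6 partner genes were higher and 12 lower with PBS. In series 2 alone, 0 machinery genes were higher and 2 lower with PBS, and 0 were called with RGLS4326. In that series 5 partner genes were higher and 10 lower with PBS. Of all genes, 7905 of 15222 and 6918 of 15188 passed in these series for PBS against wild type, and 7195 and 392 for RGLS4326 against wild type. No series had more than 2 wild-type mice, so fewer samples entered each test. Those of series 2 were wild-type mice 3 and 4, the closely alike pair. Between RGLS4326 and PBS, 0 partner genes were higher and 0 lower in each series alone, where 0 of all genes passed, and fitting only those 2 groups gave 3 higher, with 1480 of 14687 genes passing against 2402 of 15185. The reversed signs were all of genes short of the threshold: in series 1, Ago3 at −0.058 and Ago4 at 0.12, in series 2, Dgcr8 at 0.028, in series 3, Tnrc6b at −0.023, and Ago3 at −0.026 without PBS-treated mouse 5. The cause was not tested.

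Leaving out 1 mouse of the groups compared gave 4 to 5 called machinery genes between RGLS4326 and wild type. For RGLS4326 against PBS it gave 0 to 2 higher machinery genes and 0 lower, 3 to 11 higher and 1 to 6 lower partner genes, and 0 to 2 changed shares; for PBS against wild type it gave 11 to 15 higher and 21 to 23 lower partner genes and 4 changed shares each time. Without RGLS4326-treated mouse 9, 3 relations to Lcn2 passed, with Tnrc6c among RGLS4326-treated mice lost and Ago4 gained, and 0 passed without the 2 mice farthest from the median. Replicate numbers are shared by the groups but do not pair the mice: the mean correlation of same-numbered mice was −0.085 and 4 of 12 pairs exceeded 0.1. With the replicate block, 2 machinery genes were higher and 5 lower against wild type (Dgcr8 at adjusted p = 0.0528, edgeR), 0 with RGLS4326, and 4 partner genes were higher and 0 lower with RGLS4326, and of all 15185 genes the block called 11059 for PBS against wild type and 303 for RGLS4326 against PBS. Of 210 gene values under alternatives other than leaving out a mouse, 185 kept their direction and side of the threshold. Depth bears most on Ago3, at 31 to 96 counts per mouse, and on Mir17hg, at 50 to 158; depth and spread between mice were not separated.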
